A study of Arabidopsis thaliana with 5 samples.

Results

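Convergent genes lie on opposite strands with their 3′ ends toward each other, and where their annotated ends cross, the same stretch of DNA can be copied into RNA from both strands. In the TAIR10.1 annotation of the 5 nuclear chromosomes of Arabidopsis thaliana, 3098 pairs of the 27444 protein-coding genes overlapped on opposite strands. Of these pairs, 1979 overlapped tail to tail by at least 25 nt, 385 overlapped in this way by less, 354 overlapped at their 5′ ends, and in 380 pairs 1 gene lay inside the other. The 1979 overlap segments belong to 3956 genes. The 73 segments that also meet a further annotated gene were set aside, and the values below are of the other 1906, unless stated otherwise. These 1906 segments are 25 to 3784 nt long with a median of 104 nt. In 1152 of them no base codes for protein, in 616 the segment holds coding bases of 1 gene and in 138 of both. The 3′ UTRs of 17859 protein-coding genes without such an overlap and without contact to any other gene were the controls.

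RNA came from unopened flower buds. Double-stranded RNA (dsRNA) was sequenced from wild-type Col-0 after 1 round (1X) and after 2 rounds (2X) of rRNA depletion, and from an rdr6 mutant in the Col-0 background after 1 round; in each case a ribonuclease that cuts single-stranded RNA was applied before sequencing with the strand kept. Small RNA (smRNA) was sequenced from Col-0 and from rdr6. RDR6 is an RNA-dependent RNA polymerase, and rdr6 plants lack its function. Each of the 5 conditions has 1 library, and the dsRNA of each library was pooled from 3 biological replicates before sequencing, so that no difference between libraries below has a replicate check. All intervals are 95% Wilson intervals unless stated otherwise; these intervals and the limit of 3 reads that a count of 0 allows cover counting error only.

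Transcripts from both strands of an overlap can pair, and plants are known to make small interfering RNAs from some such pairs, mostly in stressed or reproductive tissue, where they act on the mRNA of a partner gene. Plant small RNAs fall into length classes: RDR6 copies transcripts that are then diced mainly into 21-nt small RNAs, whereas 24-nt small RNAs mostly come from the RDR2 and DCL3 pathway that directs DNA methylation. In dsRNA sequencing, a read can come from a duplex of 2 transcripts or from a transcript folded on itself, and the reads do not tell these apart. Reads of small RNA length were also common in the dsRNA libraries. Of their single-location nuclear reads, 44.4% were 20–25 nt in Col-0 1X, 31.5% in Col-0 2X and 35.7% in rdr6. Whether these were small RNAs or pieces of longer dsRNA was not tested.

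The sequences at which small RNAs of the overlap segments were most abundant are given first, since nearly all small RNA of the 1906 segments came from a few of them. For each of the 5 segments with the most 20–25 nt reads in Col-0, and for the segment whose small RNA differed most between Col-0 and rdr6, the genome sequence at the most abundant 24-nt location is shown 5′ to 3′ as RNA (RefSeq, TAIR10.1), with the 5′ base, which guides the choice of Argonaute protein in plants, in capitals. They lie at chr1:18020511-18020534 (minus strand), chr2:12755035-12755058 (plus), chr3:9682019-9682042 (plus), chr1:17534074-17534097 (plus), chr2:17344752-17344775 (plus) and chr1:29286229-29286252 (plus), in the order printed.
AT1G48725/AT1G48730: Aggaguagaccagggagaucguga
AT2G29920/AT2G29925: Uguuauuacugcagcacucggacc
AT3G26440/AT3G26450: Aucauauguagauuaaaugguguu
AT1G47657/AT1G47660: Aacagucgacaagcaggaacugua
AT2G41590/AT2G41600: Aaggaagcagcuucaagauacucc
AT1G77870/AT1G77880: Ucuggaagcuuggucugacuauac

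The first of these locations had 183 reads in Col-0 and 230 in rdr6, the second 69 and 97, the third 43 and 39, the fourth 13 and 13, and the fifth 25 and 24, so that each of the 5 was present in both libraries. The last had 0 reads in Col-0 and 7 in rdr6. No single location dominated: the first held 5.82% of the 24-nt reads of its segment, spread over 259 locations, and the largest share among the 6 was 16.8%, in AT2G41590/AT2G41600. The 24-nt partner that would leave a 2-nt 3′ overhang on each end, the shape a Dicer enzyme leaves, was found at 3 of the 6 locations. In AT2G29920/AT2G29925 it had 7 reads in Col-0 and 16 in rdr6, in AT1G48725/AT1G48730 2 and 1, and in AT1G77870/AT1G77880 0 and 3. Over the 6 segments with the most small RNA in Col-0, the number of opposite-strand 24-nt location pairs at this offset was 70 in Col-0 and 87 in rdr6, the same as the median over the 41 offsets examined in each library.

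The libraries held 8193747 to 13773151 mapped reads. Reads with a single location on the nuclear chromosomes numbered 1310406 to 1531342 in the dsRNA libraries, and 6094830 and 6767079 in the smRNA libraries of Col-0 and rdr6. The rdr6 label was checked at genes that depend on RDR6: single-location dsRNA reads in TAS1a, a source of trans-acting small RNAs, were 1205 in Col-0 1X and 13 in rdr6, and smRNA reads 12506 and 279. The RDR6 gene itself had 22 dsRNA reads in Col-0 1X, 53 in Col-0 2X and 9 in rdr6. File positions end within each reference chromosome, and 78.7% of 21-nt Col-0 smRNA reads in annotated miRNA genes began with U in the reference, the usual first base of plant miRNAs.

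The first question is whether the overlaps gave dsRNA from both strands. Over all segments they did so more often than control 3′ UTRs, but in few segments, and the difference was not seen at every depth. Of the 1906 segments, 639 had at least 1 read in Col-0 1X, 839 in Col-0 2X and 584 in rdr6. Reads on both strands were found in 102 segments (5.35%) in Col-0 1X, 212 (11.1%) in Col-0 2X and 98 (5.14%) in rdr6, against 2.03%, 2.37% and 2.18% of the control 3′ UTRs. In all, 864 segments had no dsRNA read in any library.

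Among the 49 segments with at least 10 reads in Col-0 1X, 22 had reads on both strands (44.9%, interval 31.9–58.7%), where the same share over all segments and controls at that depth was 21.4%. In Col-0 2X, 61 of 131 segments did (46.6%, interval 38.2–55.1%, against 11.4% of all), and in rdr6 20 of 51 (39.2%, interval 27–52.9%, against 24.8%). The interval of the segments lay above that of the controls in both Col-0 libraries, whereas in rdr6 the intervals met (controls 23.5%, interval 20.1–27.2%). Most segments at this depth held coding bases. In Col-0 1X both strands had reads in 6 of 27 with coding bases of 1 gene (22.2%), 13 of 17 of both genes and 3 of 5 without. The controls had 19.5%. In Col-0 2X the counts were 32 of 78 (41.0%), 24 of 38 and 5 of 15, against 8.40% of controls. In rdr6 they were 6 of 27, 13 of 20 and 1 of 4. A stricter class holds features whose strands did not differ in number by the exact two-sided binomial test at 0.05. It took 6 segments in Col-0 1X (12.2%, interval 5.73–24.2%, against 5.98% of all), 17 in Col-0 2X (13.0%, interval 8.26–19.8%, against 2.42%) and 3 in rdr6 (5.88%, interval 2.02–15.9%, against 4.63%). For this class the segments stood apart from controls only in the 2X library, where the controls had 1.51% (interval 1.01–2.25%), against 5.48% in Col-0 1X. The 2X library was prepared with further heating and renaturing, which the authors propose lowered the share of duplexes between molecules. The class depends on depth: in Col-0 1X it held 25.5% of segments with at least 6 reads and 4.35% of those with at least 20, against 6.51% and 6.10% of controls. Reads on both strands also depended on depth: from 50 reads on, they were found in 4 of 7 segments and 52.1% of controls in Col-0 1X, in 7 of 14 and 17.4% in Col-0 2X, and in 4 of 8 and 66.2% in rdr6.

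**Figure D1:**
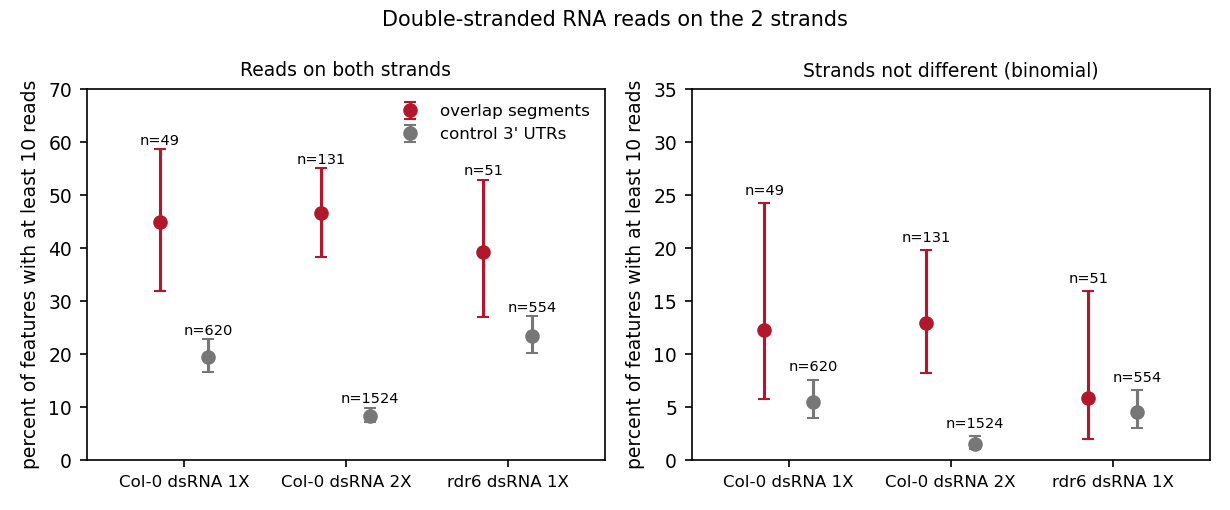
Share of features with at least 10 dsRNA reads that had reads on both strands (left) or whose strands did not differ by the binomial test (right), in percent, for overlap segments (red) and control 3′ UTRs (grey) in the 3 dsRNA libraries. Points are shares, bars are 95% Wilson intervals and n is the number of features. On the left the segments lie at 39.2% to 46.6% and the controls at 8.40% to 23.5%; on the right the intervals are apart only in Col-0 2X.

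The strand that had fewer reads in a segment held 6.41% of all segment reads in Col-0 1X (interval 5.65–7.27%), 8.24% in Col-0 2X and 5.15% in rdr6, against 4.94%, 1.86% and 4.44% in the control 3′ UTRs. Summed over the segments, most dsRNA reads therefore lay on 1 strand of their segment. This does not describe a typical overlap, since a segment with 1 read has none on its lesser strand. AT1G48725/AT1G48730 alone held 25.4% of the reads in Col-0 1X and 45.2% in rdr6. Without the 5 segments with the most reads, the lesser strand held 7.35% in Col-0 1X, 8.43% in Col-0 2X and 7.16% in rdr6. Of the 102 segments with both strands in Col-0 1X, 33 had a base covered on both strands by reads, as had 74 of 212 in Col-0 2X and 22 of 98 in rdr6. In the others the reads of the 2 strands lay in different places of the segment. The content of coding bases went with the share: both strands were seen in 23.2% of the segments with coding bases of both genes in Col-0 1X, in 6.98% of those with coding bases of 1 gene and in 2.34% of those with none. These classes also differ in length, since the 1152 segments without coding bases add up to 99521 bases and the 138 with coding bases of both genes to 100347. In Col-0 2X the shares were 39.9%, 16.7% and 4.69%.

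In 30 segments (1.57%) both strands had reads in all 3 dsRNA libraries, compared with 91 control 3′ UTRs (0.510%). In 5 of the 30 a base was covered on both strands in each library. One of them was AT1G01160/AT1G01170, a 166-nt overlap of 3′ UTRs between GIF2, a transcriptional co-activator of leaf growth, and a gene of an ozone-responsive stress-like protein. It had 8 plus-strand and 3 minus-strand reads in Col-0 1X, 14 and 11 in Col-0 2X and 10 and 4 in rdr6, with 43, 35 and 71 bases covered on both strands. Its smRNA was 1 read in Col-0 and 0 in rdr6. The 127-nt overlap AT3G07080/AT3G07090, between a gene of an EamA-like transporter and one of a putative thiol peptidase, had 2 and 1, 1 and 2, and 2 and 1 reads, and no smRNA read in either library. The other 3 were AT1G48725/AT1G48730, AT1G47657/AT1G47660 and AT2G29920/AT2G29925, which also led in small RNA and are described below. Nearly all dsRNA reads of these 3 were shorter than 26 nt. In AT1G47657/AT1G47660, 0 of 38 reads in Col-0 1X, 0 of 39 in Col-0 2X and 1 of 83 in rdr6 were 26 nt or longer. In AT2G29920/AT2G29925 the counts were 1 of 76, 1 of 53 and 2 of 56, and in AT1G48725/AT1G48730 9 of 895, 4 of 734 and 10 of 1923. Of the 30 segments, 12 had no smRNA read of 20–25 nt in either library.

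The segments with the most dsRNA on the lesser strand in Col-0 1X were AT1G48725/AT1G48730, AT2G29920/AT2G29925, AT3G26440/AT3G26450, AT1G47657/AT1G47660 and, tied at 6 lesser-strand reads, AT3G11560/AT3G11570 and AT4G14500/AT4G14510. The first 4 were also among the 5 segments with the most smRNA. Of the tied segments, AT3G11560/AT3G11570 joins a gene of a LETM1-like protein and TBL8, a TRICHOME BIREFRINGENCE-LIKE gene. It had 11 plus-strand and 6 minus-strand reads in Col-0 1X, 21 and 5 in Col-0 2X and 7 and 1 in rdr6, and no smRNA read in either library. AT4G14500/AT4G14510 joins a gene of the polyketide cyclase and lipid transport family to CFM3B, of the CRM family of RNA-binding proteins. It had 20 and 6 dsRNA reads in Col-0 1X, 23 and 10 in Col-0 2X and 19 and 6 in rdr6. Its smRNA was 5 and 2 reads in Col-0 and 3 and 1 in rdr6. The lesser strand thus had a lower count in rdr6 than in Col-0 1X in the former and the same count in the latter. Both segments were chosen for their lesser-strand reads in Col-0 1X, and the counts are not scaled. This comparison therefore cannot show a change in rdr6. Outside the rule for named pairs, and chosen after its values were seen, AT5G48870/AT5G48880 joins SAD1, which codes for a small nuclear ribonucleoprotein, to KAT5, a peroxisomal thiolase of fatty acid breakdown, in a 160-nt overlap without coding bases. It had 3 plus-strand and 18 minus-strand reads in Col-0 1X, 7 and 16 in Col-0 2X and 5 and 2 in rdr6, and no smRNA read.

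The second question is whether a gene's own dsRNA changes where its transcript enters the overlap. The reads of a gene's own strand were far sparser in the overlap than in the adjacent part of its 3′ UTR, and the last bases of control 3′ UTRs were about as sparse. Summed over 2860 genes of the pairs, Col-0 1X had 1.57 own-strand reads per kb in the segments and 7.27 per kb in the adjacent 3′ UTR, a ratio of 0.216. In control genes, the last 104 bases had 2.02 reads per kb and the rest of the 3′ UTR 7.29, a ratio of 0.277. The ratios were 0.191 in pairs and 0.219 in controls in Col-0 2X, and 0.208 and 0.236 in rdr6. The segments also hold coding and intron bases, which the adjacent and control stretches do not. In segments without coding bases the ratios were 0.288 in Col-0 1X, 0.251 in Col-0 2X and 0.281 in rdr6. These lay above the control ratio in each library, so the order of pairs and controls turned. Gene by gene, 78 genes of the pairs had at least 10 own-strand reads in both stretches together in Col-0 1X, and 54 of these had none in the segment, as had 376 of 565 control genes in their last 104 bases. The median log2 ratio of reads per base, with 1 read per 100 bases added to each stretch, was −2.56 in pairs (95% interval of the median over genes −2.71 to −2.35) and −2.35 in controls (−2.46 to −2.27). Since most segments had no read, these medians depend on the added reads; with 3 reads in place of each 0 and none added, they were −0.68 and −1.06, so that the order of pairs and controls was not fixed. In Col-0 2X the medians were −2.38 and −2.38 with added reads, and in rdr6 −2.84 and −2.40. Genes are not replicates. These intervals are of the median in 1 library, take the genes as independent and do not give the spread of the genes.

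Only genes with at least 25 bases of adjacent 3′ UTR entered this comparison. Of these, 5 had at least 50 own-strand reads in both stretches together in Col-0 1X, and all 5 had next to none in the overlap. Genes without such an adjacent stretch were left out, and some of them had many reads in the overlap. Among them were PMD2 (AT1G06530) with 59 and MYC2 (AT1G32640) with 81 own-strand reads in Col-0 1X. LHCA4, a light-harvesting protein of photosystem I, had 0 reads in its 53-base overlap and 110 in 226 adjacent bases in Col-0 1X, 0 and 148 in Col-0 2X and 0 and 67 in rdr6. CAB1, a chlorophyll a/b binding protein, had 1 and 73, 1 and 96, and 0 and 92 reads in the same order of libraries. CP5, of the polyketide cyclase and lipid transport family, had 0 and 72, 0 and 104, and 0 and 44. PSBR, a subunit of photosystem II, had 0 and 65, 5 and 79, and 0 and 33. MOS11, known for mRNA export, had 0 and 53, 0 and 113, and 0 and 40, in a 91-base overlap with 884 adjacent bases.

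**Figure D2:**
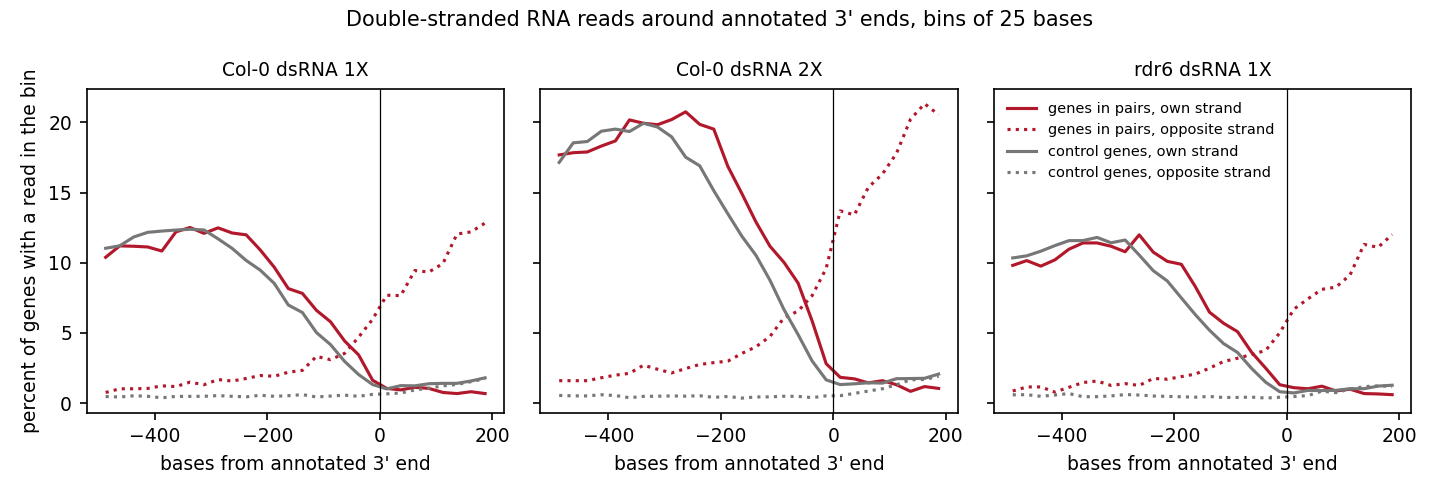
Percent of genes with at least 1 dsRNA read in bins of 25 bases, against the distance in bases from the annotated 3′ end (0, vertical line; negative is inside the gene), for 3812 gene ends of the 1906 pairs (red) and 17859 control genes (grey), own strand solid and opposite strand dotted. In Col-0 1X the own strand falls from 12% of the genes of pairs in the bin from −250 to −225 to 1.63% in the last bin, and in controls from 10.2% to 1.32%.

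The profile around annotated 3′ ends showed where the strands cross. In Col-0 1X, 6.61% of the genes of pairs had an own-strand read in the bin from −125 to −100 and 1.63% in the last 25 bases, against 5.03% and 1.32% of control genes. On the opposite strand, 3.33% of the genes of pairs had a read in the bin from −125 to −100, 5.98% in the last 25 bases, and 9.94% from 100 to 125 bases past the end, where the partner gene continues. In control genes the opposite strand had a read in 0.442%, 0.627% and 1.23%. The opposite strand rose gradually, over the same bins in which the own strand fell. From −250 to −225 it had a read in 1.76% of the genes of pairs, against 0.448% of control genes. Where it had reached 3.33%, the own strand still had a read in 6.61%. Both genes of each pair entered this profile, so the opposite strand of a gene largely shows the own strand of its partner. Control genes were chosen without contact to any other gene, so their low opposite strand follows in part from that choice. Base composition of the overlaps without coding bases was 31.1% G+C and that of control 3′ UTRs 32.2%.

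The third question is whether the overlaps gave small RNAs and of what length. Small RNA came from a handful of segments, was mostly 24 nt long, and was nearly missing from overlaps of 3′ UTRs alone. The 1906 segments had 6695 smRNA reads in Col-0 and 8993 in rdr6. Of the reads of 20–25 nt in Col-0, 68.6% came from 1 segment, 91.5% from the 5 highest and 93.9% from the 6 highest. The 5 highest of the 17859 control 3′ UTRs held 24.6% and the 10 highest 34.5%. These shares are not of like fractions, since the controls are far more numerous than the segments. At least 10 reads of 20–25 nt were found in 10 segments (0.525%) in Col-0 and in 10 in rdr6, against 1.84% and 1.99% of control 3′ UTRs. The controls are longer, with a median of 265 nt against 104 nt. Per base, smRNA reads of all lengths were denser in the segments. In Col-0 these had 6695 reads in 442367 bases and the controls 69900 in 5420563, and in rdr6 8993 and 76475 reads. This rested on the 5 highest segments of each library. The other 1901 had 615 reads in 437814 bases in Col-0 and 674 in 437744 in rdr6. The 1152 segments without coding bases had 66 smRNA reads in Col-0 and 44 in rdr6 in all, and none of them had 10.

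Among reads of 19–26 nt, 69.1% were 24 nt in Col-0 segments (interval 68.0–70.2%) and 71.1% in rdr6, against 73.0% and 74.5% in control 3′ UTRs. The 22-nt share was higher in the segments, at 10.7% in Col-0 and 9.80% in rdr6 against 4.77% and 4.50% in controls, and the 21-nt share was 4.22% and 3.11% against 3.60% and 2.49%. The leading segment, AT1G48725/AT1G48730, had 13.0% at 22 nt in Col-0. With reads of every location divided by their locations, both orders turned in Col-0, as the 24-nt share was 67.4% in segments and 61.8% in controls and the 21-nt share 4.55% and 7.34%. Without the 5 segments with the most smRNA, 565 reads of 19–26 nt were left in Col-0, of which 55.2% were 24 nt, 10.1% were 22 nt and 15.6% were 21 nt (controls without their 5 highest 72.2%, 4.09% and 3.79%). The corresponding rdr6 values, without its own 5 highest segments, were 655 reads, 66.9%, 8.70% and 7.33%. The 22-nt share thus remained above that of controls without the leading segments. The 88 reads of 21 nt in these 1901 Col-0 segments lay in 60 segments, with at most 5 in 1 segment, AT4G14500/AT4G14510, and over the same 1901 segments rdr6 had 48 reads of 21 nt in 38 segments. In the segments without coding bases, 16 of 52 reads of 19–26 nt in Col-0 were 21 nt (30.8%, interval 19.9–44.3%).

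**Figure D3:**
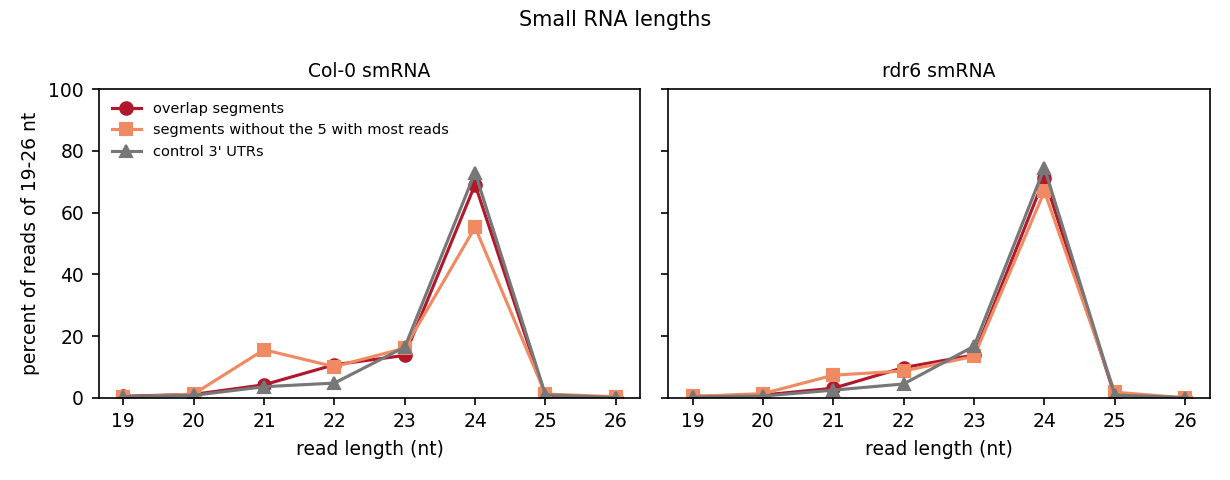
Percent of smRNA reads of 19–26 nt by read length in Col-0 (left) and rdr6 (right), for all overlap segments (red), the segments without the 5 with the most reads in that library (orange) and control 3′ UTRs (grey). All curves peak at 24 nt, at 69.1%, 55.2% and 73.0% in Col-0. At 21 nt the orange curve has 15.6% in Col-0 against 7.33% in rdr6, and the grey curve 3.60% against 2.49%.

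The 5′ base of the 24-nt reads, read from the genome, was A in 38.7% in the segments of Col-0 (interval 37.3–40.1%) and in 51.7% in control 3′ UTRs. In the 1901 segments without the 5 highest, it was A in 48.7% of 312 reads (interval 43.2–54.2%), so that the lower share was that of the highest segments. In rdr6 the shares were 37.9%, 52.7% and 50%.

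The 5 leading small RNA segments differed in strand and in extent. AT1G48725/AT1G48730, at chr1:18020337-18020642, is a 306-nt overlap of genes of uncharacterized proteins and holds coding bases of both. It had 463 plus-strand and 4095 minus-strand smRNA reads in Col-0 and 708 and 5881 in rdr6, and the 500 bases on either side had 1159 reads together in Col-0. Its dsRNA reads were 39 and 856 in Col-0 1X, 105 and 629 in Col-0 2X and 42 and 1881 in rdr6, with the minus strand leading in each of the 5 libraries. Of these dsRNA reads 9, 4 and 10 were 26 nt or longer, while 55.8% of the dsRNA reads of all segments in Col-0 1X were that long. Reads of 20–25 nt made up 65.1% of its dsRNA reads in Col-0 1X, 39.5% in Col-0 2X and 38.9% in rdr6, and most of the others were shorter. Of its dsRNA reads of 19–26 nt, 44.2% were 24 nt in Col-0 1X, 6.68% in Col-0 2X and 1.48% in rdr6. The 24-nt share of the control 3′ UTRs moved in the same way between the dsRNA libraries, with 30.1%, 10.6% and 5.81%.

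AT2G29920/AT2G29925, 379 nt long and also of uncharacterized proteins, had 195 plus-strand and 488 minus-strand smRNA reads in Col-0 and 244 and 584 in rdr6, with 330 and 496 reads in the 500 bases on its left side. Its dsRNA reads were 16 and 60, 27 and 26, and 35 and 21 in Col-0 1X, Col-0 2X and rdr6, so that its strands were nearly even in 1 library and the leading strand changed. AT1G47657/AT1G47660, 1234 nt long, had 217 and 33 smRNA reads in Col-0 and 181 and 66 in rdr6. Its flanks had 218 and 179 reads, so that smRNA continued past the overlap here as well. AT2G41590/AT2G41600 lies between a gene annotated as a Ta11-like non-LTR retrotransposon and a gene of the mitochondrial glycoprotein family. It had 150 and 41 smRNA reads in Col-0 and 127 and 47 in rdr6, and 150 in its left flank in each library.

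AT3G26440/AT3G26450 differed from these in extent. It is 2265 nt long, with coding bases of 1 gene, and joins a DUF707 membrane protein gene to a gene of the polyketide cyclase and lipid transport family. It had 336 plus-strand and 62 minus-strand smRNA reads in Col-0 and 386 and 64 in rdr6, with 1 and 0 reads in its flanks, so that the small RNA lay inside the overlap. AT2G34110/AT2G34100, the longest segment at 3784 nt and the sixth in small RNA, had 100 and 62 reads in Col-0 and 101 and 65 in rdr6, with 20 and 9 in its flanks. In all 11 segments with at least 10 smRNA reads in a library, 24 nt was the commonest length in both libraries, and all 11 held coding bases. For AT1G77870/AT1G77880 the Col-0 length rests on 1 read.

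**Figure D4:**
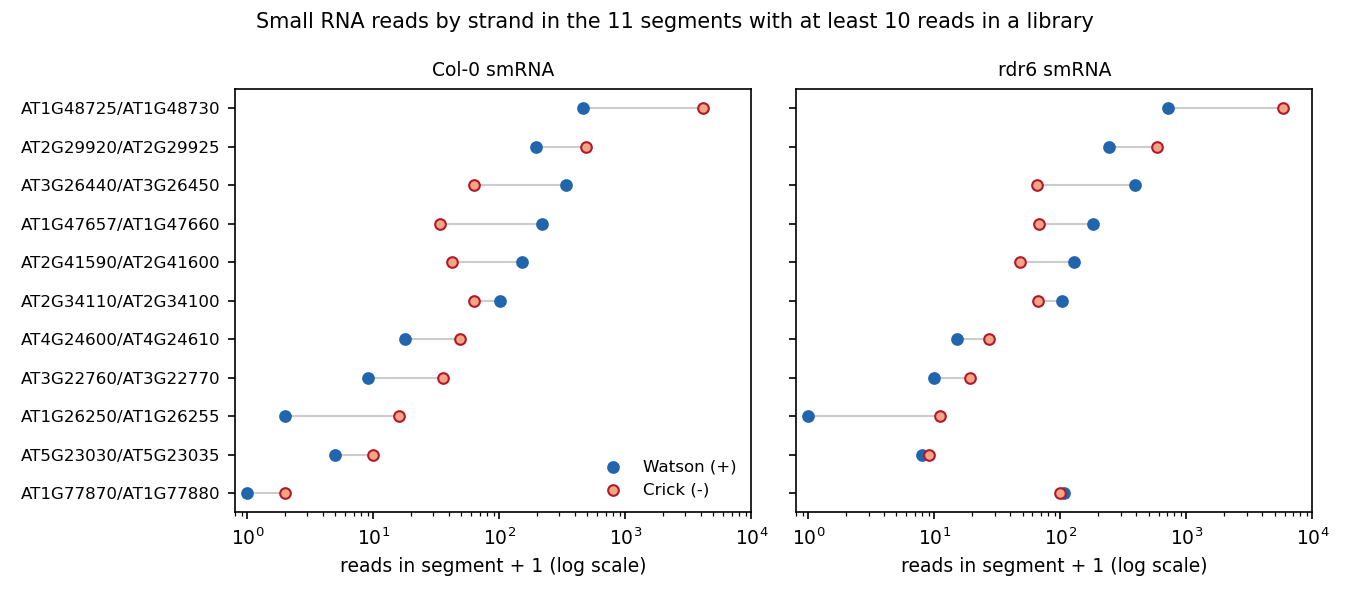
Small RNA reads plus 1 (log scale) on the plus strand (blue) and minus strand (orange) of the 11 segments with at least 10 smRNA reads in either library, in Col-0 (left) and rdr6 (right). The leading strand was the same in both libraries in 10 of the 11, and AT1G77870/AT1G77880 stands out with 1 read in Col-0 and 106 and 99 in rdr6.

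The fourth question is what changed in rdr6. Few segments differed between the libraries, and for dsRNA the direction depended on how the libraries were scaled. The large small RNA segments were present in both genotypes, and 1 overlap had small RNA almost only in the rdr6 library. A segment was called where its reads per mapped read differed at least 2-fold, both libraries together had at least 10 reads and the exact one-sided p of Audic and Claverie was under 0.001; this test compares 2 libraries and not genotypes. Of 109 segments with enough dsRNA reads, 1 was higher in Col-0 1X (1.99% of all segments and controls tested) and 3 were higher in rdr6 (5.35%). Of 17 segments with enough smRNA reads, 0 were higher in Col-0 (2.57% of all) and 1 was higher in rdr6 (3%). With 1 read added to each count, the median log2 ratio of Col-0 to rdr6 was −0.33 in dsRNA over the 109 segments and −0.18 over 1349 control 3′ UTRs. In smRNA it was 0.08 over the 17 and −0.07 over 450. With Col-0 2X in place of 1X the dsRNA medians had the opposite sign, 0.42 over 190 segments and 0.44 over 2226 controls.

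The segment higher in Col-0 dsRNA was AT1G61565/AT1G61566, where a gene of an uncharacterized protein meets RALFL9, a gene of a RALF-like signalling peptide. It had 48 reads in Col-0 1X, 94 in Col-0 2X and 12 in rdr6, all but 1 of them on the RALFL9 strand, and no smRNA read in either library. The log2 ratio of Col-0 1X to rdr6 was 1.67 (exact Audic–Claverie p = 4.9e-05).

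Among the segments higher in rdr6 dsRNA, AT1G48725/AT1G48730 had 895 reads in Col-0 1X, 734 in Col-0 2X and 1923 in rdr6, a log2 ratio of Col-0 1X to rdr6 of −1.43 (exact Audic–Claverie p = 9.4e-145). AT1G47657/AT1G47660 had 38, 39 and 83 reads, a log2 ratio of −1.46 (p = 3.9e-08, exact test as above). The third, AT3G61560/AT3G61570, of a reticulon family gene and GDAP1, had 1 read in Col-0 1X, 9 in Col-0 2X and 10 in rdr6. Its ratio of rdr6 to Col-0 1X was 12.6 with an exact counting interval from 1.79 to 545, and the 2X library did not share the low value. Scaled by single-location nuclear reads instead of mapped reads, or by the reads of the control 3′ UTRs, none of the 3 was called, and 3 and 2 segments were higher in Col-0. With only reads of at least 26 nt counted, 0 of 78 segments were higher in rdr6 and 2 were higher in Col-0. With Col-0 2X in place of 1X, 12 of 190 segments were higher in Col-0 (5.96% of all tested) and 4 in rdr6 (4.35%).

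The segment higher in rdr6 smRNA was AT1G77870/AT1G77880, a 439-nt overlap at chr1:29285902-29286340 with coding bases of 1 gene. It joins MUB5, a membrane-anchored ubiquitin-fold protein, to a gene of the galactose oxidase/kelch repeat family. It had 1 smRNA read in Col-0 and 205 in rdr6, of which 106 lay on the plus and 99 on the minus strand. The ratio of rdr6 to Col-0 was 197 with an exact counting interval from 34.9 to 7808 (exact Audic–Claverie p = 6.6e-59). Of the 205 reads, 51.7% were 24 nt, 38.5% 23 nt and 2.44% 21 nt, and they lay within the overlap, since the 500 bases on either side had 21 reads together. The dsRNA reads of this segment were 10 in Col-0 1X, 2 in Col-0 2X and 1 in rdr6, the opposite order. The count of 1 segment higher in rdr6 smRNA was the same under every alternative tried, all of which use the same pair of libraries.

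The 5 segments with the most smRNA in Col-0 were not called: AT1G48725/AT1G48730 had 4558 and 6589 reads, AT2G29920/AT2G29925 683 and 828, AT3G26440/AT3G26450 398 and 450, AT1G47657/AT1G47660 250 and 247 and AT2G41590/AT2G41600 191 and 174 in Col-0 and rdr6. Their log2 ratios ran from −0.47 to 0.19. The first of these differed beyond counting error (exact Audic–Claverie p = 4.9e-66) but by less than 2-fold.

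**Figure D5:**
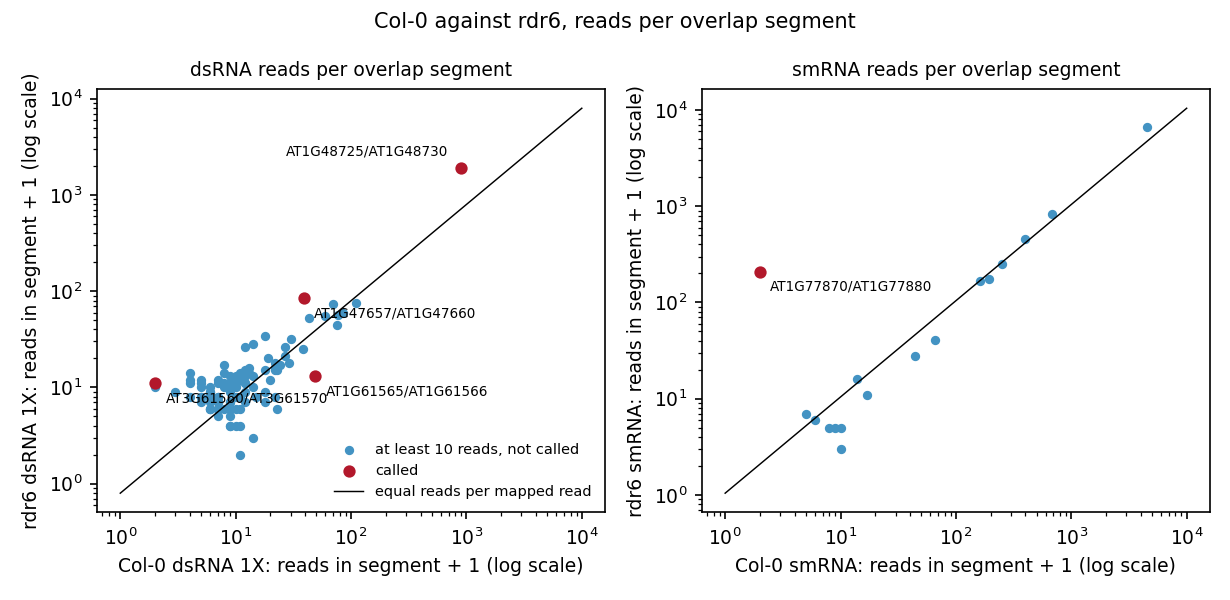
Reads per overlap segment plus 1 (log scales) in Col-0 (horizontal) and rdr6 (vertical), for dsRNA with 1 round of rRNA depletion (left, 109 segments with at least 10 reads in both libraries together) and smRNA (right, 17 segments). The line marks equal reads per mapped read; red points are the called segments, 4 in dsRNA and 1 in smRNA.

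Pairs known from the literature as sources of small RNAs from overlapping transcripts were looked up by their locus. SRO5 and P5CDH (AT5G62520/AT5G62530), known for such small RNAs in plants under salt stress, overlap by 905 nt, and P5CDH, named ALDH12A1 in the annotation, breaks down proline. The segment had 11 dsRNA reads in Col-0 1X, 17 in Col-0 2X and 12 in rdr6, of which 1, 1 and 0 lay on the SRO5 strand, and 1 smRNA read on each strand in Col-0 and 0 in rdr6. A pentatricopeptide repeat gene and GB2 (AT4G35850/AT4G35860), a small GTPase gene known for small RNAs in plants attacked by bacteria, overlap by 128 nt. The segment had 2 dsRNA reads in each library and 0 smRNA reads in both, which allows up to 3 reads. SOBIR1, a receptor-like kinase gene, and RAP (AT2G31880/AT2G31890) overlap by 478 nt, with 5, 23 and 4 dsRNA reads and 0 smRNA reads in both libraries. KPL and ARI14 (AT5G63720/AT5G63730), known for small RNAs in sperm, are not among the segments, as their annotated 3′ ends lie 82 bases apart. In these flower buds, without an applied stress in the labels, none of the 3 overlaps had more than 2 smRNA reads in a library.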

How the data were processed

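The counts deposited by the authors are raw reads per non-redundant sequence, not normalized, with every location on TAIR9: reads were collapsed, 3′ adapters trimmed where found, and sequences aligned with cross_match at up to 6% mismatches. RNA for dsRNA-seq was pooled from 3 biological replicates. Gene positions and sequences came from RefSeq TAIR10.1 (annotation of TAIR and Araport); file positions fit its 5 nuclear chromosomes. Only reads with 1 location were counted, at their middle base, per strand. A log2 ratio is of reads per mapped read in each library, without added reads unless stated. Strands were tested with the exact binomial test, libraries with the Audic–Claverie test, without adjustment for the number of features. Pairs named are known small RNA sources, the 5 highest by lesser-strand dsRNA, by smRNA and by lesser-strand smRNA, and all called segments. Named too are the 5 genes with at least 50 own-strand reads in overlap and adjacent 3′ UTR together. Members, lists and rules were chosen with earlier results of these data known. Alternatives are in the closing section. Scripts were tested on simulated data (pandas 2.3.3, scipy 1.17.1 and numpy 2.4.6 under Python 3.11.15; figures with matplotlib 3.10.9).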

Additional observations from a re-analysis of the deposited data

How the results depend on the processing

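No paired analysis was possible because each condition has 1 library. In Col-0 1X, the share of segments with strands that did not differ was 12.2% at a minimum of 10 reads. It was 4.35% at a minimum of 20 and 25.5% at 6. It stayed inside its wide counting interval of 5.73–24.2% under the other alternatives, 2X and rdr6 included. The distance from the controls did move. Segments and controls had 12.2% and 5.48% in the main setting, and 10.5% and 8.57% with reads of every location divided by their locations. They had 11.1% and 7.52% with each sequence counted once, and 6.45% and 0.525% with reads of at least 26 nt. In Col-0 2X they had 13.0% and 1.51%, and in rdr6 5.88% and 4.51%. The 24-nt share of 69.1% in Col-0 became 67.4% with reads of every location divided by their locations (controls 73.0% and 61.8%), 52.5% with each sequence counted once, 55.2% without the 5 features with the most reads and 36.5% in segments without coding bases, which was chosen as an alternative only after the data had been seen. The 21-nt share of 4.22% became 9.55%, 15.6% and 30.8% under the last 3 of these. For dsRNA, 1 segment was higher in Col-0 and 3 in rdr6; scaling by single-location nuclear reads gave 3 and 0, by control 3′ UTR reads 2 and 0, a 4-fold limit 0 and 1, reads of at least 26 nt 2 and 0, and Col-0 2X gave 12 higher in Col-0. Divided locations gave 8 higher in rdr6. The smRNA counts of 0 and 1 did not move under any alternative tried. The own-strand median of −2.56 was −2.84 in rdr6 and −2.91 against the nearest 200 adjacent bases. The causes of these shifts were not tested, apart from fewer or more features passing a read minimum. Depth limits every part: 49 of 1906 segments reached 10 reads in Col-0 1X dsRNA and 10 in Col-0 smRNA.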

Other observations

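The 73 segments that meet a further annotated gene had 181, 386 and 230 dsRNA reads in Col-0 1X, Col-0 2X and rdr6, while their smRNA was 29 reads in Col-0 and 18 in rdr6. Both strands had reads in 7, 13 and 10 of them in the dsRNA libraries and in 3 and 1 in the smRNA libraries. No read of any of the 5 libraries fell in 813 of the 1906 segments without such a gene.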
